A study of Homo sapiens with 18 samples.

Results

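Baseline expression was compared by RNA-seq between C4-2B and 22Rv1, 2 lines of human prostate cancer. The comparison uses 6 of the 18 libraries of the series, those whose labels name them as controls of these lines, 3 for each. C4-2B descends from the LNCaP line through castrated hosts and a bone metastasis, and 22Rv1 was derived from a prostate cancer xenograft that relapsed after castration. Every library in the comparison came from cells that had received a scramble control siRNA with a cationic lipid reagent, in RPMI medium with serum, and the transfection mix was replaced by fresh medium after 24 hours, so the levels are those of mock-silenced rather than untouched cells. The knockdown libraries of the same lines, used once below as a further set, received siRNA against EMD, which encodes the inner nuclear membrane protein emerin. The libraries are numbered as triplicates without a statement that they came from separate cultures, so p-values measure the spread between these libraries, which may be technical. The lines were deposited in separate count tables and carry different batch labels. Line, batch and table therefore cannot be told apart in any value below, and each line stands for a single established culture and not for a class of tumours.

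Prostate luminal epithelium depends on androgens, which with the pioneer factor FOXA1 and the homeobox factor HOXB13 drive secretory genes such as those of the kallikrein proteases. Castration-resistant tumours often keep this programme. Others lose parts of it and gain neuroendocrine, basal or mesenchymal genes, a change known as lineage plasticity.

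The C4-2B controls held 15530197, 19385564 and 25112148 reads and the 22Rv1 controls 28538877, 15602874 and 30788078. The table of C4-2B lists 22360 genes and that of 22Rv1 lists 25716, of which 20724 were in both and 16752 passed the filter on low counts and were tested. A gene found in a single table was not tested, and its absence from the other table was not read as silence. Mitochondrially encoded genes took 5.91% to 6.38% of reads in C4-2B and 0.964% to 1.20% in 22Rv1, and the 50 most abundant genes took 13.9% to 14.3% in C4-2B and 10.3% to 10.4% in 22Rv1. Protein-coding genes took 95.3% to 95.5% of reads in C4-2B and 97.0% to 97.3% in 22Rv1. Levels are given as TMM-scaled CPM, the scaled share of a library's reads, with the SD over 3 libraries. A log2 fold change is C4-2B over 22Rv1 with its standard error, and genes are called different at an edgeR adjusted p below 0.05. The standard error is too small for genes with few reads in a line. For genes found in a single table or too low to be tested, CPM are over the whole table of the line. A cell line is not a mixed tissue, but in bulk RNA fewer cells of a kind and less RNA per cell cannot be told apart.

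Most genes differed between the lines. Of the 16752 genes tested, 6593 were higher (39.4%) and 6765 lower (40.4%) in C4-2B, 79.7% in all, and in 82.0% of genes the 3 libraries of a line did not overlap with those of the other. With a call rate this high, a call by itself says little, and the size of a difference carries more. A gene that passed the filter through the line where it is high had to differ, so the counts given below for lists describe their tested members only. Beside shares of 39.4% higher and 40.4% lower over all genes, a list that divides about evenly does not stand out by its calls. Its large differences can still be uneven. At least 4-fold differences (past the threshold with a log2 fold change of at least 2 in size) were found for 1416 genes that were higher (8.45%) and 1981 that were lower (11.8%) in C4-2B, 20.3% in all. The median log2 fold change was 0.00 and the median absolute one 0.78. Large differences were more frequent among genes of low level: they made up 36.7% of genes at 2 to 10 CPM and 9.81% of those above 100 CPM. EMD itself, the target of the knockdown elsewhere in the series, was at 67.3, 75.8 and 68.4 CPM in the C4-2B controls and at 65.5, 70.1 and 61.6 CPM in the 22Rv1 controls (0.10 ± 0.06, adjusted p = 0.126), with overlapping libraries.

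Androgen-induced genes were mostly higher in C4-2B, and KLK3, which encodes prostate-specific antigen, was among those with the widest gaps. KLK3 was at 1523, 1520 and 1525 CPM in C4-2B, against 18.2, 21.8 and 20.6 CPM in 22Rv1 (6.25 ± 0.06, adjusted p = 1.63e-22). Its neighbour on chromosome 19, KLK2, which encodes a related kallikrein protease, was at 345, 371 and 348 CPM in C4-2B, against 43.3, 41.8 and 43.0 CPM in 22Rv1 (3.05 ± 0.05, adjusted p = 8.26e-20). Neither gene had a library of either line inside the range of the other, which held for 82.0% of all genes tested. The 250 bases before the start of each gene, from RefSeq on GRCh38.p14, are shown because these promoters are the textbook androgen-driven pair and share a stretch of sequence. They lie at chr19:50854665-50854914 for KLK3 and chr19:50873189-50873438 for KLK2, both on the plus strand, with the match to a relaxed androgen response element (GNACA, then any 4 bases, then GTNC, searched on both strands and found here on the plus strand) in capitals:
KLK3: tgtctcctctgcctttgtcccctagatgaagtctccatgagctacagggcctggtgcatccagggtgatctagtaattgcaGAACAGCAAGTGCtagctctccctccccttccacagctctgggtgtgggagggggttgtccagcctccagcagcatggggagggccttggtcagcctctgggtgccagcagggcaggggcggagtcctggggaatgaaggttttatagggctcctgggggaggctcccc
KLK2: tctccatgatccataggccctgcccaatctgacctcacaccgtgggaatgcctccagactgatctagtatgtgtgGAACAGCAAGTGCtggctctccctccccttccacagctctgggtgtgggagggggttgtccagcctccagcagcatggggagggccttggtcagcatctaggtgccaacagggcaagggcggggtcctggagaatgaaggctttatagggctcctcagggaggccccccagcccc
The match is the same 13 bases in both, starting 169 bases before the start in KLK3 and 175 in KLK2, and the promoters are identical at 185 of 244 aligned bases (75.8%). The element occurs on either strand in 634 of 35116 promoters of this length (1.81%) and in 2 of the 19 androgen-induced genes that have an entry, KLK2 and KLK3 themselves. KLK3 was 76.0-fold and KLK2 8.30-fold higher in C4-2B with the same matched letters before both genes. A match describes the sequence only and is not evidence of binding.

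Of 29 genes on the androgen-induced list, 28 were tested, and 17 were higher and 9 lower in C4-2B, with a median log2 fold change of 1.72 (0.00 over all genes tested). At least 4-fold differences were seen for 13 that were higher and 5 that were lower. ABCC4, an efflux pump of prostanoids and cyclic nucleotides, was at 808, 827 and 818 CPM in C4-2B, against 7.75, 7.61 and 8.29 CPM in 22Rv1 (6.69 ± 0.05). AZGP1, a secreted zinc-binding glycoprotein, averaged 590 ± 20.5 CPM in C4-2B and 29.8 ± 3.46 CPM in 22Rv1 (4.29 ± 0.07). The cold-sensing ion channel TRPM8 held 1818 reads in the 3 C4-2B controls and 3 in the 3 22Rv1 controls, a ratio of levels of 793 (95% counting interval 271 to 3851). TMPRSS2, the serine protease whose promoter is fused to ERG in many prostate tumours, averaged 574 ± 3.64 CPM in C4-2B and 98.5 ± 3.31 CPM in 22Rv1 (2.54 ± 0.04). The list did not move as a block. KLK4, a further kallikrein, was lower, at 103, 96.9 and 97.6 CPM in C4-2B, against 462, 461 and 452 CPM in 22Rv1 (-2.21 ± 0.04). HPGD, which inactivates prostaglandins, averaged 6.67 ± 0.40 CPM in C4-2B and 164 ± 13.0 CPM in 22Rv1 (-4.61 ± 0.08). The transmembrane protein gene TMEFF2 (-5.09 ± 0.18) and the nicotinic receptor subunit gene CHRNA2 (-2.13 ± 0.06) were lower as well.

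**Figure D1:**
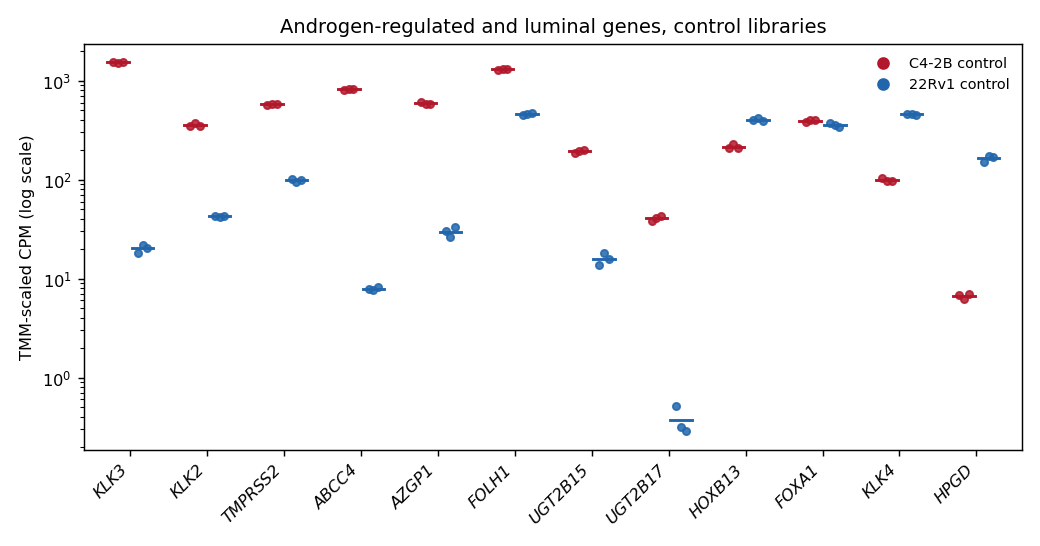
TMM-scaled CPM (log scale) of androgen-regulated and luminal genes in the 3 C4-2B control libraries (red, left of each pair) and the 3 22Rv1 control libraries (blue, right); points are libraries and bars are means. KLK3, ABCC4 and UGT2B17 show gaps of over 4 log2 units, HOXB13 is lower in C4-2B, and KLK4 and HPGD run against the rest of the androgen-regulated genes.

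The factors that act with androgens on luminal genes differed less than most of the genes named above. FOXA1 was close in both lines, at 393 ± 10.3 CPM in C4-2B and 357 ± 14.1 CPM in 22Rv1 (0.14 ± 0.04, adjusted p = 0.00319), and it did not pass when libraries were scaled by their totals alone (adjusted p = 0.134). HOXB13 averaged 215 ± 12.2 CPM in C4-2B and 404 ± 14.8 CPM in 22Rv1 (-0.91 ± 0.04).

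Luminal identity genes went both ways, with 9 of 20 higher, 10 lower and a median of -0.06. The epithelial ETS factor EHF was at 918, 908 and 912 CPM in C4-2B, against 53.1, 49.3 and 53.3 CPM in 22Rv1 (4.13 ± 0.04). The surface peptidase gene DPP4 (3.76 ± 0.06) and the tetraspanin gene TSPAN1 (3.47 ± 0.11) were also higher in C4-2B. The related ETS factor ELF3 ran the other way, at 38.1 ± 1.52 CPM in C4-2B and 317 ± 5.55 CPM in 22Rv1 (-3.05 ± 0.05). The keratins given here, intermediate filament proteins of epithelia, were all lower in C4-2B, by very different amounts. KRT8 (-1.01 ± 0.04) and KRT18 (-0.14 ± 0.04), the luminal pair, were modestly lower in C4-2B, whereas KRT19 was at 49.5, 43.7 and 45.4 CPM in C4-2B, against 520, 557 and 517 CPM in 22Rv1 (-3.53 ± 0.05), and KRT7 was at 0.40 ± 0.03 CPM in C4-2B and 27.5 ± 0.79 CPM in 22Rv1 (-6.10 ± 0.17). The defining markers of prostate epithelium KRT8, KRT18, FOXA1 and HOXB13 were thus present in both lines.

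Cell-surface antigens that are targets of prostate cancer therapy also differed. FOLH1, which encodes prostate-specific membrane antigen, was at 1290, 1306 and 1310 CPM in C4-2B, against 445, 464 and 467 CPM in 22Rv1 (1.51 ± 0.03). The metalloreductase STEAP2 averaged 1183 ± 47.0 CPM in C4-2B and 148 ± 2.98 CPM in 22Rv1 (3.00 ± 0.04), and STEAP1 275 ± 9.80 CPM in C4-2B and 47.8 ± 4.10 CPM in 22Rv1 (2.53 ± 0.06). The adhesion molecule gene L1CAM was lower, at 1.83 ± 0.34 CPM in C4-2B and 42.5 ± 4.41 CPM in 22Rv1 (-4.54 ± 0.14). Of 20 such genes 16 were tested, and 6 were higher and 7 lower, with a median of -0.03.

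The androgen-inactivating transferases UGT2B15 and UGT2B17 were higher in C4-2B. UGT2B15, which conjugates dihydrotestosterone metabolites to glucuronic acid, was at 187, 192 and 201 CPM in C4-2B, against 13.7, 17.9 and 15.8 CPM in 22Rv1 (3.63 ± 0.07). Its close relative UGT2B17 was at 38.3, 41.0 and 42.4 CPM in C4-2B, against 0.51, 0.31 and 0.29 CPM in 22Rv1 (6.72 ± 0.16). These genes are similar in sequence and the counting could split reads between them, so their separate levels are uncertain. CYP11A1, which makes pregnenolone from cholesterol, averaged 34.9 ± 2.39 CPM in C4-2B and 7.52 ± 0.30 CPM in 22Rv1 (2.22 ± 0.10). The steroid sulfatase gene STS was at 11.1 ± 0.58 CPM in C4-2B and 1.31 ± 0.52 CPM in 22Rv1 (3.05 ± 0.23). The steroid dehydrogenase HSD17B11 was lower (-1.33 ± 0.07), and so was AKR1C2 (-1.90 ± 0.17), whose reads are shared with near-identical AKR1C genes. Of 26 genes of androgen synthesis and inactivation 18 were tested, 10 higher and 5 lower (median 0.45). A further 6 were in the C4-2B table alone, all at low level, among them HSD3B1, which acts on adrenal precursors, with 77 reads over the 3 C4-2B controls.

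The neuroendocrine and neuronal genes showed the reverse pattern: all 12 tested members were lower in C4-2B, 7 of them at least 4-fold, with a median of -4.29. PEG10, a retrotransposon-derived gene known from neuroendocrine prostate cancer, was at 0.33, 0.21 and 0.12 CPM in C4-2B, against 714, 657 and 679 CPM in 22Rv1 (-11.66 ± 0.10, adjusted p = 1.4e-22). SRRM4, a splicing factor that drives neuronal exon inclusion, averaged 0.35 ± 0.04 CPM in C4-2B and 38.5 ± 2.93 CPM in 22Rv1 (-6.79 ± 0.16). The neuronal RNA-binding protein gene CELF3 averaged 0.17 ± 0.11 CPM in C4-2B and 156 ± 4.27 CPM in 22Rv1 (-9.93 ± 0.14). ENO2, the neuron-specific enolase, was at 3.31, 3.597 and 3.66 CPM in C4-2B, against 329, 336 and 344 CPM in 22Rv1 (-6.57 ± 0.06). SYP, which encodes the synaptic vesicle protein synaptophysin, averaged 2.38 ± 0.81 CPM in C4-2B and 61.5 ± 1.70 CPM in 22Rv1 (-4.65 ± 0.13). In each of these genes the lines did not overlap, as in 82.0% of all genes tested. Non-overlap was also part of the rule for naming list members other than set anchors.

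Of the 32 genes on the neuroendocrine list, 15 were found in the 22Rv1 table alone and so have no test. CHGA, which encodes chromogranin A, had 46.8, 49.2 and 49.0 CPM over the whole table in the 22Rv1 controls. The other members of this kind, named here after their values were seen, included the neuronal RNA-binding protein ELAVL3 (49.7 ± 0.69 CPM), the transcription factor MYCN (36.4 ± 0.79 CPM), the granin CHGB (30.9 ± 2.44 CPM) and the secretogranin SCG3 (28.5 ± 1.81 CPM). The list was not uniform within 22Rv1. INSM1 was at 0.861 CPM in the 22Rv1 table, and NEUROD1 was in neither table.

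**Figure D2:**
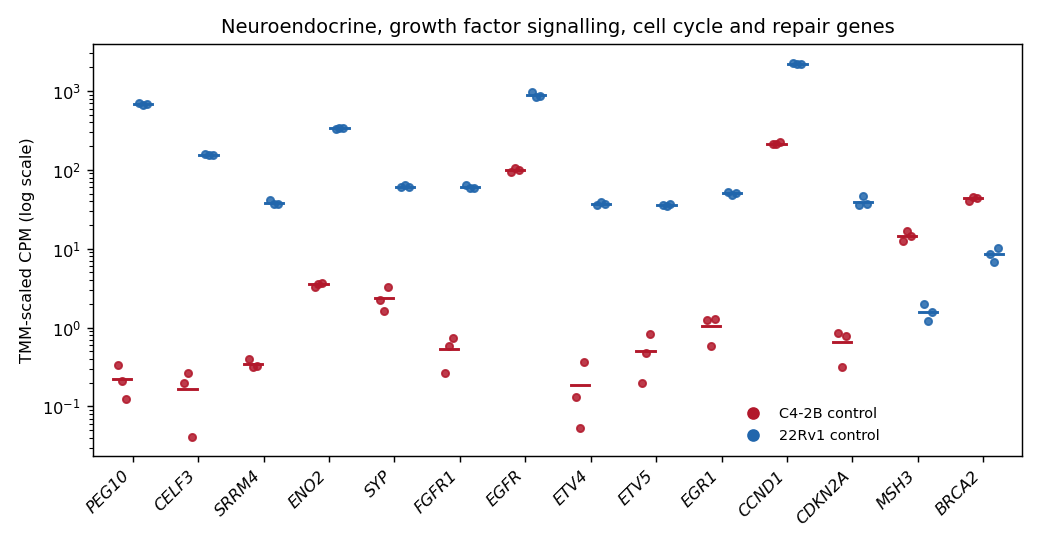
TMM-scaled CPM (log scale) of neuroendocrine genes, growth factor signalling genes and cell cycle or repair genes in the 3 C4-2B control libraries (red, left of each pair) and the 3 22Rv1 control libraries (blue, right); points are libraries and bars are means. PEG10 to CDKN2A are lower in C4-2B in every library, while MSH3 and BRCA2 are higher.

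Receptor tyrosine kinases and their ligands also split between the lines. EGFR, the epidermal growth factor receptor, was at 93.9, 106 and 99.9 CPM in C4-2B, against 972, 849 and 876 CPM in 22Rv1 (-3.17 ± 0.06). FGFR1, a fibroblast growth factor receptor, was at 0.26, 0.58 and 0.74 CPM in C4-2B, against 65.0, 58.8 and 58.4 CPM in 22Rv1 (-6.74 ± 0.15). FGFR3 was lower (-3.58 ± 0.06), as were the ephrin receptor EPHA7 (-4.32 ± 0.11) and the neurotrophic factor receptor RET (-4.14 ± 0.21), whereas FGFR2 was higher, at 13.9 ± 0.54 CPM in C4-2B and 0.60 ± 0.11 CPM in 22Rv1 (4.54 ± 0.20). Among ligands, IGF1, an insulin-like growth factor, was higher and averaged 101 ± 3.79 CPM in C4-2B and 2.27 ± 0.14 CPM in 22Rv1 (5.49 ± 0.08), and EGF, the ligand of EGFR, 54.0 ± 0.72 CPM in C4-2B and 2.16 ± 0.61 CPM in 22Rv1 (4.71 ± 0.13). Of 43 listed receptors and ligands 32 were tested, 9 higher and 17 lower (median -0.78).

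Genes that respond to ERK signalling, the kinase cascade below many of these receptors, were mostly lower in C4-2B. Among immediate-early factors and ERK feedback genes 18 of 24 tested were lower, 11 of them at least 4-fold, and 3 were higher (median -1.90). DUSP6, the phosphatase that switches ERK off, was at 0, 0.42 and 0.12 CPM in C4-2B, against 34.4, 37.4 and 32.6 CPM in 22Rv1 (-7.48 ± 0.26). EGR1, an early growth response factor, averaged 1.04 ± 0.39 CPM in C4-2B and 50.6 ± 2.02 CPM in 22Rv1 (-5.59 ± 0.15). SPRY1, an inhibitor of receptor kinase signalling, was an exception, at 23.1 ± 0.27 CPM in C4-2B and 7.27 ± 0.18 CPM in 22Rv1 (1.67 ± 0.10), as was the stress factor ATF3 (1.43 ± 0.05). The PEA3 group of ETS factors, known as ERK-responsive and as fusion partners in prostate cancer, had few reads in C4-2B. ETV4 had 12 reads over the 3 C4-2B controls and averaged 0.18 ± 0.16 CPM there, against 37.3 ± 1.24 CPM in 22Rv1 (-7.47 ± 0.21). ETV5 averaged 0.50 ± 0.31 CPM in C4-2B and 36.1 ± 1.24 CPM in 22Rv1 (-6.04 ± 0.19), and ETV1 0.11 ± 0.03 CPM in C4-2B and 7.58 ± 0.28 CPM in 22Rv1 (-6.12 ± 0.32). Over all 20 tested ETS factors 7 were higher and 11 lower.

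The cell cycle genes were mostly lower in C4-2B, by less than 4-fold for all but 2 of the replication genes. On the G1/S and replication list 23 of 27 were lower and 1 was higher (median -0.96), and on the G2/M and mitosis list 21 of 26 were lower and 2 higher (median -0.57). MCM4, part of the replicative helicase, averaged 70.03 ± 4.89 CPM in C4-2B and 329 ± 0.52 CPM in 22Rv1 (-2.23 ± 0.05). E2F2, an activator of replication genes, averaged 11.1 ± 0.28 CPM in C4-2B and 70.1 ± 1.83 CPM in 22Rv1 (-2.65 ± 0.07). The mitotic cyclin CCNA2 (-1.84 ± 0.06), the topoisomerase TOP2A (-1.28 ± 0.04) and the proliferation marker MKI67 (-0.94 ± 0.05) were lower too. HMMR, a spindle protein, and the kinetochore motor CENPE were the 2 higher ones, by 0.44 ± 0.06 and 0.28 ± 0.06. RFC3, the clamp loader subunit that was higher by 0.19 ± 0.05, did not pass when libraries were scaled by their totals alone (adjusted p = 0.0614).

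Among the D cyclins, their kinases and inhibitors, 12 of 14 were lower in C4-2B. CCND1, which encodes cyclin D1, was at 210, 212 and 224 CPM in C4-2B, against 2286, 2204 and 2176 CPM in 22Rv1 (-3.37 ± 0.04). CDKN2A, the locus of the inhibitors p16 and p14ARF, averaged 0.65 ± 0.29 CPM in C4-2B and 39.6 ± 5.80 CPM in 22Rv1 (-5.91 ± 0.20). The kinase CDK6 (-2.09 ± 0.09) and the inhibitor CDKN1C (-2.91 ± 0.08) were lower as well. RB1, the retinoblastoma gene, overlapped between the lines, at 63.3 ± 1.90 CPM in C4-2B and 58.6 ± 3.57 CPM in 22Rv1 (0.11 ± 0.06, adjusted p = 0.0839), and passed without 22Rv1 control 1 (adjusted p = 0.036).

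Tumour suppressors and PI3K pathway genes had no common direction, with 13 of 28 higher and 10 lower. AKT1, the kinase below PI3K, averaged 313 ± 3.36 CPM in C4-2B and 1540 ± 18.5 CPM in 22Rv1 (-2.30 ± 0.03). GDF15 and BBC3 come from another list, so they do not illustrate these counts. GDF15, a secreted stress cytokine, was higher at 626 ± 21.3 CPM in C4-2B and 199 ± 20.8 CPM in 22Rv1 (1.66 ± 0.07). BBC3, which encodes the death effector PUMA, was lower at 4.29 ± 0.45 CPM in C4-2B and 83.8 ± 3.90 CPM in 22Rv1 (-4.27 ± 0.09).

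DNA repair genes differed at several named loci. MSH3, a mismatch recognition protein, was at 12.5, 16.6 and 14.4 CPM in C4-2B, against 1.99, 1.20 and 1.56 CPM in 22Rv1 (3.15 ± 0.19). BRCA2, a mediator of homologous recombination, averaged 43.4 ± 2.88 CPM in C4-2B and 8.46 ± 1.69 CPM in 22Rv1 (2.33 ± 0.11), and MGMT, which removes alkyl groups from DNA, 40.8 ± 1.85 CPM in C4-2B and 9.30 ± 1.26 CPM in 22Rv1 (2.12 ± 0.10). FANCA, of the Fanconi anaemia complex, was lower (-1.39 ± 0.09). Of 20 such genes 7 were higher and 10 lower.

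Adhesion and matrix genes held some of the widest gaps between the lines. LAMA3, the alpha chain of laminin-332 in the basement membrane, was at 349, 374 and 352 CPM in C4-2B, against 1.61, 1.01 and 0.83 CPM in 22Rv1 (8.26 ± 0.10, adjusted p = 1.03e-17). ITGA6, the integrin that binds it, averaged 57.7 ± 2.76 CPM in C4-2B and 6.27 ± 0.88 CPM in 22Rv1 (3.17 ± 0.10). Its partner ITGB4 was low in both, at 2.72 ± 0.57 CPM in C4-2B and 6.11 ± 0.50 CPM in 22Rv1 (-1.17 ± 0.20). The matrix glycoproteins FBLN1 (0.07 ± 0.07 CPM in C4-2B and 61.7 ± 3.84 CPM in 22Rv1) and SPOCK1 (1.67 ± 0.06 CPM in C4-2B and 81.9 ± 4.40 CPM in 22Rv1) were lower, whereas COL6A1 (2.73 ± 0.06) and THBS1 (2.74 ± 0.07) were higher in C4-2B. In all, 12 of 24 tested matrix genes were higher and 10 lower, and 7 of 15 integrins were higher and 8 lower. NID1, a linker of basement membranes, and CD44, the hyaluronan receptor, were in the 22Rv1 table alone, at 94.96 ± 5.48 and 87.2 ± 2.34 CPM.

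Basal and mesenchymal genes differed widely in level. KRT5 and TP63, defining basal markers, were in the 22Rv1 table alone at 0.0217 and 0.0117 CPM. NGFR, the nerve growth factor receptor of basal cells, was in that table alone too, at 34.3 ± 1.75 CPM. LAMA3 and EGFR, whose levels are given above, are also on the basal list. FN1, the fibronectin gene of the mesenchymal list, averaged 331 ± 6.25 CPM in C4-2B and 551 ± 26.5 CPM in 22Rv1 (-0.74 ± 0.04). Of 11 tested genes of the basal list 3 were higher and 5 lower, and of 11 of the mesenchymal list 4 were higher and 4 lower. The vimentin gene VIM was low in both, at 5.50, 7.88 and 6.82 CPM in C4-2B, against 1.10, 2.33 and 1.28 CPM in 22Rv1 (2.18 ± 0.26). The E-cadherin gene CDH1 averaged 679 ± 9.66 CPM in C4-2B and 410 ± 16.8 CPM in 22Rv1 (0.73 ± 0.04). CDH2, the N-cadherin gene, was in the 22Rv1 table alone at 13.5 CPM. The mesenchymal factor SNAI2 was in the C4-2B table alone at 11.4 CPM, and TWIST1 in the 22Rv1 table alone at 17.4 CPM, both named after their values were seen. Among junction genes 15 of 24 were higher in C4-2B, with the tight junction scaffold TJP1 at 248 ± 6.51 CPM in C4-2B and 40.4 ± 0.43 CPM in 22Rv1 (2.62 ± 0.04). P-cadherin, CDH3, was lower (-2.92 ± 0.08).

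Stem-like and WNT pathway genes again divided by member, with 5 of 13 tested stem-like genes higher and 7 lower. ALDH1A1, a retinaldehyde dehydrogenase, was at 254, 252 and 246 CPM in C4-2B, against 13.8, 15.0 and 13.7 CPM in 22Rv1 (4.15 ± 0.05). SOX9, a progenitor factor, averaged 41.1 ± 1.85 CPM in C4-2B and 13.5 ± 0.29 CPM in 22Rv1 (1.61 ± 0.08). The neural progenitor RNA-binding protein MSI1 (0.22 ± 0.22 CPM in C4-2B and 75.6 ± 3.80 CPM in 22Rv1) and the neural intermediate filament NES (3.86 ± 0.16 CPM in C4-2B and 97.9 ± 0.37 CPM in 22Rv1) were lower. Of 22 tested WNT and beta-catenin genes 14 were lower and 4 higher, and LEF1, a nuclear partner of beta-catenin, averaged 1.86 ± 0.07 CPM in C4-2B and 31.0 ± 0.39 CPM in 22Rv1 (-4.05 ± 0.12). SOX2 and LGR5 were in the 22Rv1 table alone, at 1.34 and 2.09 CPM.

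Cancer-testis antigens, genes of the germ line that tumours re-express, held wide differences in both directions. PAGE1 had 8634 reads in the C4-2B controls and 3 in the 22Rv1 controls, a ratio of levels of 3768 (95% counting interval 1289 to 18276), the widest difference in favour of C4-2B among genes with at least 20 CPM. MAGEA4 was at 0.40, 0.85 and 0.45 CPM in C4-2B, against 236, 254 and 255 CPM in 22Rv1 (-8.76 ± 0.10). CTAG1B, which encodes NY-ESO-1, held 8 reads in C4-2B and 16803 in 22Rv1, but its reads are shared with a near-identical copy. PRAME was higher (1.42 ± 0.05). MAGEA10 was in the C4-2B table alone, at 44.0, 43.5 and 43.0 CPM. Of 16 tested members 6 were higher and 4 lower.

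HOX genes, which record position along the body axis, had HOXA10 at 44.0, 48.5 and 44.3 CPM in C4-2B, against 1.34, 0.82 and 0.83 CPM in 22Rv1 (5.48 ± 0.14), and HOXA11 at 12.3 ± 0.64 CPM in C4-2B and 0.11 ± 0.04 CPM in 22Rv1 (6.64 ± 0.27). HOXD8 was lower, with 3 reads in the C4-2B controls and 514 in the 22Rv1 controls, a ratio of levels of 131 in favour of 22Rv1 (95% counting interval 44.5 to 637). Of 28 tested HOX genes 8 were higher and 12 lower, and 8 did not pass.

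Innate immune genes had calls in both directions. Of 37 interferon response and antigen presentation genes 16 were higher and 14 lower (median 0.03). Over all genes tested, 39.4% were higher and 40.4% lower. At least 4-fold differences were less even in this list, with 7 genes higher and 1 lower in C4-2B. Over all genes those shares were 8.45% and 11.8%. BST2, the viral tethering factor, averaged 151 ± 3.46 CPM in C4-2B and 18.9 ± 1.76 CPM in 22Rv1 (3.01 ± 0.06), while the ubiquitin-like modifier ISG15 averaged 33.1 ± 0.77 CPM in C4-2B and 208 ± 14.9 CPM in 22Rv1 (-2.65 ± 0.06). ISG15 was the only gene of this list at least 4-fold lower. B2M, the light chain of class I antigen presentation, was higher (0.62 ± 0.04). In the NF-kB and inflammatory list 10 of 16 tested genes were higher and 6 lower, at least 4-fold for 4 and 1 of them. The cytokine IL32 had 1676 reads in the C4-2B controls and 4 in the 22Rv1 controls (8.97 ± 0.30), and the adhesion molecule ICAM1 averaged 39.0 ± 1.68 CPM in C4-2B and 2.84 ± 0.15 CPM in 22Rv1 (3.78 ± 0.11). The complement gene C3 was lower, at 0.10 ± 0.13 CPM in C4-2B and 21.4 ± 1.97 CPM in 22Rv1 (-7.42 ± 0.29).

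Metabolic and stress lists held wide single-gene differences in both directions. FADS2, which desaturates fatty acids, was at 822, 821 and 807 CPM in C4-2B, against 28.2, 26.4 and 26.8 CPM in 22Rv1 (4.91 ± 0.04). SREBF1, the regulator of lipid synthesis, averaged 336 ± 13.3 CPM in C4-2B and 61.9 ± 2.42 CPM in 22Rv1 (2.45 ± 0.05). The fatty acid elongase ELOVL6 was lower (-3.33 ± 0.08). Over the 30 cholesterol and fatty acid genes 13 were higher and 13 lower (median -0.002). Detoxification genes divided likewise by calls, with 13 of 28 higher and 14 lower (median -0.28). By size they did not, with 2 at least 4-fold higher and 9 at least 4-fold lower in C4-2B. Over all genes those shares were 8.45% and 11.8%. NQO1, a quinone reductase, averaged 211 ± 11.5 CPM in C4-2B and 18.3 ± 1.52 CPM in 22Rv1 (3.51 ± 0.06), while the drug efflux pump ABCG2 averaged 0.53 ± 0.24 CPM in C4-2B and 16.6 ± 0.58 CPM in 22Rv1 (-4.91 ± 0.21). GSTP1, a glutathione transferase often silenced in prostate cancer, was in the 22Rv1 table alone at 0.0963 CPM. The endoplasmic reticulum chaperone HSPA5 was at 5036, 5022 and 5037 CPM in C4-2B, against 1023, 1050 and 1040 CPM in 22Rv1 (2.28 ± 0.03), and the collagen chaperone SERPINH1 was lower (-6.40 ± 0.13). Of 20 chaperone genes 7 were higher and 12 lower (median -0.35). Among 30 hypoxia and glycolysis genes, with 9 higher and 16 lower (median -0.25), the hypoxia-induced kinase PDK1 was higher (2.40 ± 0.09). The IGF-binding proteins IGFBP5 (-2.48 ± 0.05) and IGFBP3 (1.12 ± 0.04) went opposite ways, and of 7 tested members of that family 1 was higher and 4 were lower (median -1.31).

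Mitochondrially encoded RNAs and histone RNAs were higher in C4-2B nearly throughout. All 13 mitochondrially encoded genes were higher, 8 at least 4-fold, with a median of 2.33. MT-CO1, a subunit of cytochrome oxidase, was at 15812, 15096 and 15857 CPM in C4-2B, against 2316, 1829 and 1927 CPM in 22Rv1 (2.94 ± 0.11). The list of nuclear-encoded subunits of the same complexes did not follow: 22 of 35 were lower and 7 higher (median -0.38). Those 7 include TFAM (0.42 ± 0.07), which encodes a mitochondrial transcription factor and not a subunit. Of 19 tested replication-dependent histone genes 18 were higher, 14 at least 4-fold (median 2.69), and H2AC6 averaged 57.1 ± 2.03 CPM in C4-2B and 2.30 ± 0.32 CPM in 22Rv1 (4.63 ± 0.11). Histone genes are similar in sequence, so their separate counts are uncertain. The mitochondrial share of reads given above includes these same mitochondrially encoded genes, so it is not a separate observation. The nuclear noncoding RNAs MALAT1 (245 ± 17.4 CPM in C4-2B and 72.2 ± 24.97 CPM in 22Rv1) and NEAT1 (161 ± 8.47 CPM in C4-2B and 71.2 ± 6.80 CPM in 22Rv1) were higher in C4-2B too. Of 6 tested noncoding RNAs of the nucleus and of small size 2 were higher and 1 was lower. The part of the mitochondrial share in these differences was not tested, and line and batch cannot be told apart. The 43 ribosomal protein genes were balanced, with 19 higher and 19 lower.

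On the nuclear envelope and lamina list, 17 of 29 genes were lower in C4-2B and 8 higher (median -0.27). The list reaches beyond the envelope. Its higher genes include MAN1A1 (1.31 ± 0.07), which encodes a Golgi mannosidase, and the nuclear factor BCLAF1 (1.18 ± 0.04). LMNA, which encodes lamins A and C, was at 131, 132 and 141 CPM in C4-2B, against 253, 258 and 236 CPM in 22Rv1 (-0.89 ± 0.05). LMNB1, which encodes lamin B1, averaged 100.5 ± 1.53 CPM in C4-2B and 181 ± 5.40 CPM in 22Rv1 (-0.85 ± 0.04). TMPO, a LEM-domain partner of lamins, was lower (-1.55 ± 0.04), as was the nesprin gene SYNE1 (-2.58 ± 0.14). ZMPSTE24, the protease that matures lamin A, was higher at 122 ± 3.25 CPM in C4-2B and 43.8 ± 0.86 CPM in 22Rv1 (1.48 ± 0.05).

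**Figure D3:**
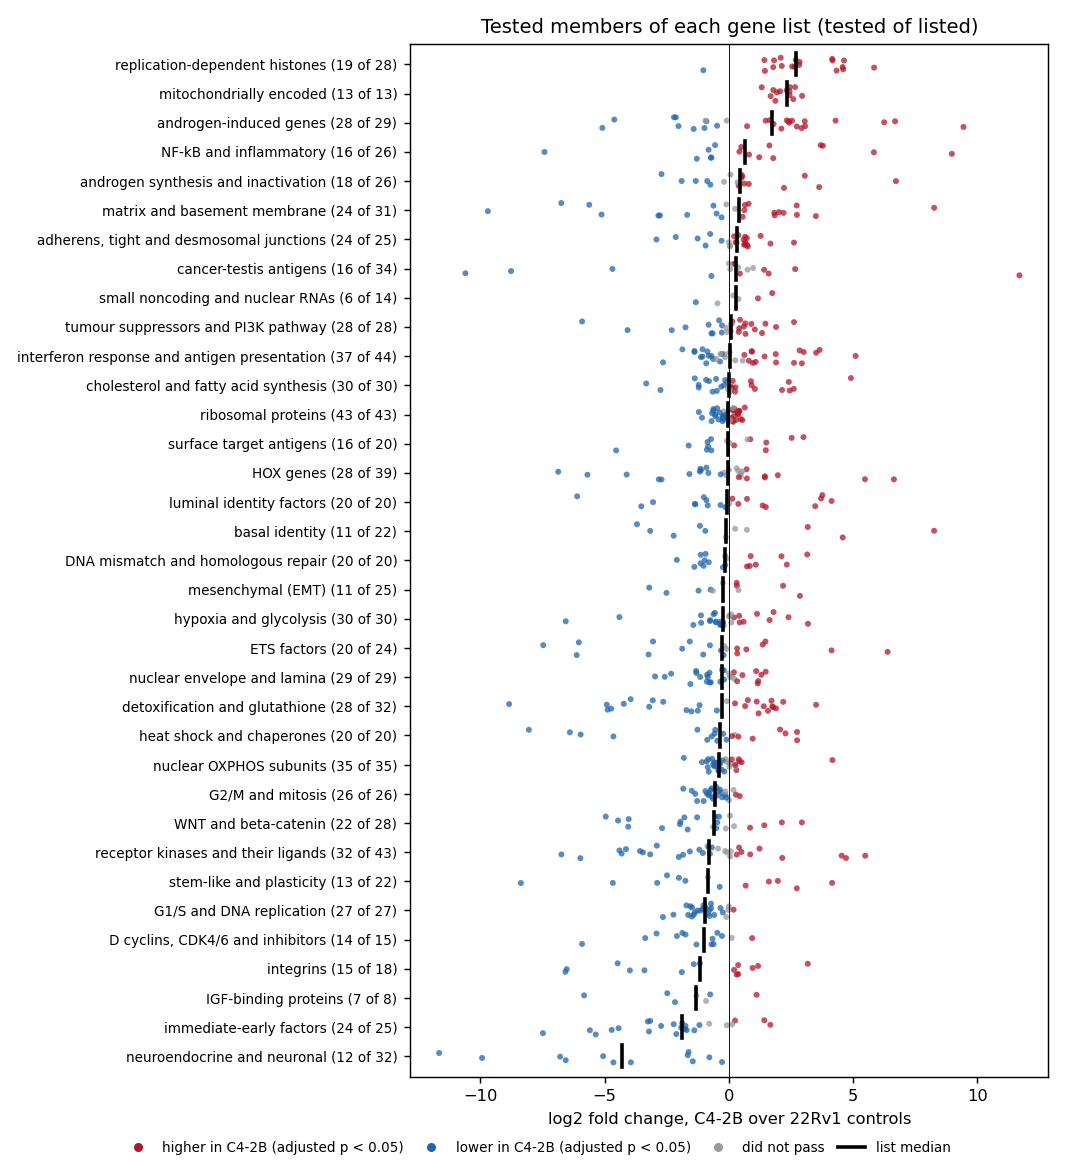
Log2 fold change of C4-2B over 22Rv1 controls for each tested member of gene lists with at least 5 tested members, ordered by median (black bars); the counts beside each name are tested and listed members, and red and blue points passed the test as higher and lower in C4-2B. Histones and mitochondrially encoded genes lie at the top, with medians of 2.69 and 2.33, and neuroendocrine genes at the bottom, with a median of -4.29. A list of that size that is not reported here was left out of the figure.

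Some genes were read in a single line almost exclusively. Besides PAGE1, IL32 and TRPM8, the 10 widest differences in favour of C4-2B included the adaptor EFS (3787 reads in C4-2B and 2 in 22Rv1, a ratio of levels of 2479 with a 95% counting interval of 686 to 20479), the inflammasome-related NLRP2 (125 ± 5.29 CPM in C4-2B and 0.10 ± 0.08 CPM in 22Rv1), the GTPase-activating protein ARHGAP28 (162 ± 2.41 CPM in C4-2B and 0.17 ± 0.18 CPM in 22Rv1), the sialyltransferase ST6GALNAC1, the armadillo-repeat gene ARMCX3, the protease inhibitor SLPI and the germ-cell factor SOHLH2. On the other side, 5 of the 10 widest had no read in any C4-2B control and are bounded against 3 reads over those libraries. The muscle phosphoglycerate mutase PGAM2, at 118, 119 and 119 CPM in 22Rv1, was at least 2311-fold lower in C4-2B. TMEM200B was at least 1213-fold lower, the homeobox gene EMX1 at least 614-fold and the synaptic vesicle gene SNAP91 at least 545-fold. FABP5, at least 583-fold lower, has several near-identical processed copies and is uncertain. ACE, the angiotensin-converting enzyme, had 4 reads in C4-2B and was at 669, 656 and 619 CPM in 22Rv1 (-13.09 ± 0.15). SGCE, which neighbours PEG10 on chromosome 7 and is maternally imprinted like it, had 1 read in C4-2B and 4589 in 22Rv1, a ratio of levels of 3505 (95% counting interval 629 to 138460) in favour of 22Rv1. The chitin-binding receptor FIBCD1 and the calcium channel CACNA1B also had 1 read each in C4-2B, with ratios of 2908 (522 to 114900) and 2751 (493 to 108690) in favour of 22Rv1. These floors and intervals cover counting error only.

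Genes listed in a single table were examined by level. Of 1636 genes in the C4-2B table alone, 29 averaged at least 5 CPM, and of 4992 in the 22Rv1 table alone, 233 did. The highest of C4-2B were the histone variant H2AJ (129 ± 4.52 CPM), CXorf49, MAGEA10, PASD1, NUDT12, LINC01270, LINC00221, DDX53, HPR and GSTT2B (14.2 ± 1.19 CPM). The highest of 22Rv1 were the globin HBA2 (169 ± 10.2 CPM, uncertain because HBA1 is nearly identical), the sodium channel subunit SCNN1B (116 ± 7.26 CPM), GUCY1A2, DOK6, the aldehyde dehydrogenase ALDH7A1 (108 ± 6.75 CPM), FREM2, NID1, CD44, CFC1 and LHFPL4 (83.0 CPM). Of 12 blood cell markers 2 were tested, with a summed level of 3.20 to 4.76 CPM in C4-2B and 1.10 to 1.95 CPM in 22Rv1. A further 3 were in the 22Rv1 table alone and 1 in the C4-2B table alone. PTPRC, CD3E and CD52 were among 5 in neither table, which was not read as silence, and HBB had 0 CPM in the 22Rv1 table. The source of the HBA2 reads was not tested. Of 12 fibroblast and endothelial markers 3 were tested, and the endothelial gene VWF was higher, at 21.7 ± 1.36 CPM in C4-2B and 0.77 ± 0.29 CPM in 22Rv1 (4.89 ± 0.19), while PECAM1 was in neither table. The summed level of the 3 was 23.6 to 26.9 CPM in C4-2B and 2.64 to 3.59 CPM in 22Rv1.

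Differences were uneven along the genome. Chromosome 8 had the lowest median log2 fold change, -0.67, with 67.4% of its 528 tested genes lower and 18.4% higher in C4-2B, and all 12 of its 10-Mb windows with at least 20 tested genes had medians below 0. Chromosomes 3 (median -0.42, 15 of 16 windows below 0) and 12 (-0.31, 13 of 14) were also low. Chromosomes 21 (0.46), 13 (0.34) and 15 (0.27, 8 of 8 windows above 0) were high, as was X (0.26, 10 of 10). The lowest window by median was on chromosome 6 from 80000001 to 90000000 (-1.40, 36 genes) and on chromosome 20 from 1 to 10000000 (-1.09) 61 of 73 genes were lower and 5 higher. The highest window was on chromosome 13 from 20000001 to 30000000 (1.07, 38 of 47 genes higher). Positions are those of GENCODE 29 on GRCh38.

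**Figure D4:**
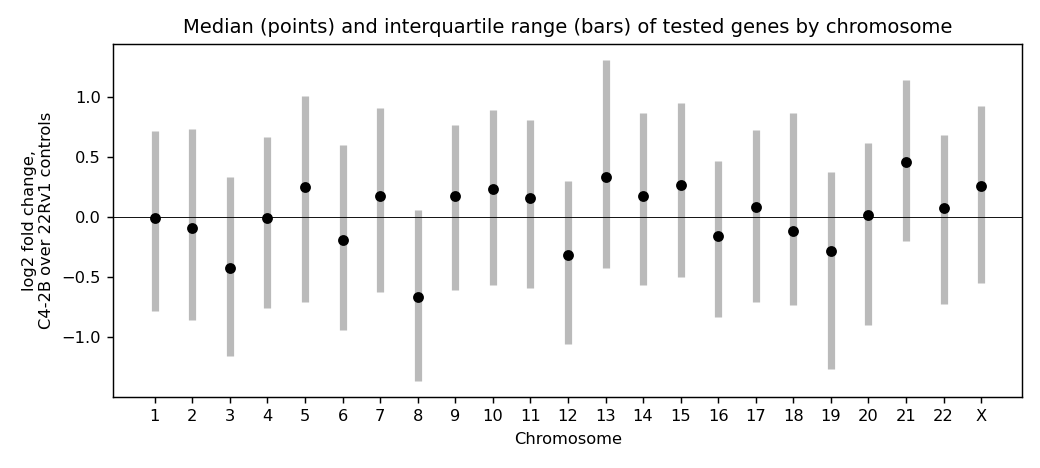
Median (points) and interquartile range (bars) of the log2 fold change of C4-2B over 22Rv1 controls for tested genes by chromosome. Chromosome 8 lies lowest with a median of -0.67 and chromosome 21 highest with 0.46.

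The same contrast was taken in the EMD knockdown libraries, which share no library with the controls but share line, batch and table. Of 16018 genes tested there, 41.7% were higher and 41.1% lower in C4-2B, and 21.5% differed at least 4-fold. Of the 3397 genes with at least 4-fold differences between the controls, 2917 were tested in the knockdown libraries, where 2713 were called in the same direction, 2135 of them again at least 4-fold, and 30 in the opposite direction. Over 15742 genes tested in both the log2 fold changes had a Pearson correlation of 0.84, given as a description since genes are not independent and the lines are shared. The log2 fold change of KLK3 was 5.78 in the knockdown libraries and 6.25 in the controls, and that of PEG10 was -12.29 in the knockdown libraries and -11.66 in the controls. LAMA3 gave 7.55 after knockdown and 8.26 in the controls. CCND1 gave -3.44 after knockdown and -3.37 in the controls. The gap was wider after knockdown for some cell cycle genes: MCM4 gave -4.05 in the knockdown libraries, against -2.23 in the controls (interaction adjusted p = 1.55e-18), and MKI67 gave -3.56 after knockdown and -0.94 in the controls (interaction adjusted p = 1.18e-12). BRCA2 gave -0.68 in the knockdown libraries, against 2.33 in the controls (interaction adjusted p = 3.52e-14), and FN1 gave 2.65 after knockdown and -0.74 in the controls (interaction adjusted p = 2.07e-21). For CCND1 and PEG10 the same interaction test did not pass (adjusted p = 0.099 and 0.365). It did pass for KLK3 (-0.49, interaction adjusted p = 1.53e-06) and LAMA3 (-0.73, interaction adjusted p = 0.012), whose gaps were smaller after knockdown.

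**Figure D5:**
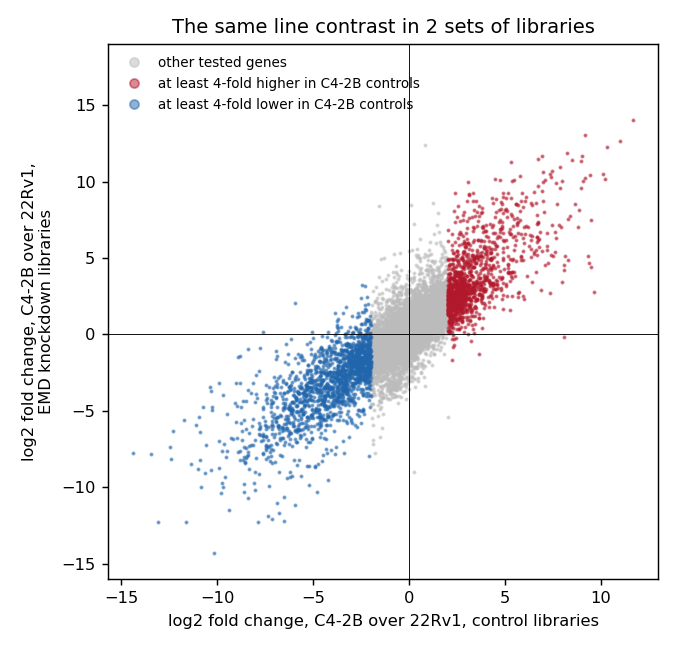
Log2 fold change of C4-2B over 22Rv1 in the control libraries (horizontal) and in the EMD knockdown libraries (vertical) for genes tested in both; red and blue points were at least 4-fold higher or lower in C4-2B controls. Most coloured points keep their side in the knockdown libraries, with 2713 of 2917 called in the same direction.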

How the data were processed

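The deposited tables hold expected counts per gene that the authors made with STAR and RSEM 1.3.1 on GRCh38, per the submitters' processing notes; they are whole numbers, and the rounding step, annotation release and strandedness are not given in the sources used here. Overlapping and near-identical genes therefore cannot be separated with certainty. The tables were joined on Ensembl gene ID. Symbols were matched to 99.33% of tested genes and positions come from GENCODE 29. The low-count filter was filterByExpr with a minimum count of 10 and a minimum total of 15. TMM scaling was followed by the robust quasi-likelihood F test of edgeR 4.0.16 in R 4.3.3, over the 6 control libraries with line as the only term, and adjusted by Benjamini-Hochberg over all tested genes. Every adjusted p in the text comes from this test unless another setting is named. A standard error is the size of the log2 fold change divided by the root of its F. The procedure was tested on simulated counts. Genes named are, per list and direction, up to 4 called members with the widest non-overlapping differences at 5 CPM or more in the higher line, set anchor genes, the 10 widest in each direction at 20 CPM or more, and the 10 highest in each table alone. The 38 lists and the members were chosen with earlier results of these data known. Replicates varied more than counting allows, with chi-square values of 3.83 to 8.90 per degree of freedom, so no pair agreed within sampling noise. Depth limits precision mainly for genes under 2 CPM, of which 52.1% were called, against 89.8% above 100 CPM. Bounds for genes without reads use 3 reads over 3 libraries, and ratios with 1 to 3 reads carry 95% exact counting intervals. The alternatives were library totals without TMM, DESeq2 1.42.0 size factors, no low-count filter, a replicate block, each library left out, whole-table library sizes, no mitochondrially encoded genes, a fit of 12 libraries, and a test against a 2-fold change. DU145 libraries were not used. Some named genes are not reported here.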

Additional observations from a re-analysis of the deposited data

Results flagged for a closer look

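Among the named genes, 5 were called in opposite directions in the knockdown and the control libraries with at least 2-fold differences in each, and for each the difference between the contrasts, knockdown less control, passed an edgeR interaction test over the 12 libraries of both lines. IGFBP5, which binds insulin-like growth factors, gave a log2 fold change of 3.24 in the knockdown libraries and -2.48 in the controls, a difference of 5.71 (adjusted p = 2.48e-18). Its level was 6.80 CPM in C4-2B and 0.71 CPM in 22Rv1 after knockdown, and 25.1 CPM in C4-2B and 140 CPM in 22Rv1 without. IGFBP3 turned the other way, with -1.14 in the knockdown libraries and 1.12 in the controls (difference -2.27, adjusted p = 9.25e-21). The heat-inducible chaperone HSPA6 gave 2.05 after knockdown and -5.97 in the controls (difference 7.99, adjusted p = 5.87e-17), with 11 reads in the C4-2B controls. The Notch ligand DLL3 gave 1.79 after knockdown and -1.62 in the controls (difference 3.39, adjusted p = 2.29e-14), and the hemidesmosomal integrin ITGB4 gave 2.15 after knockdown and -1.17 in the controls (difference 3.31, adjusted p = 3.68e-09). For a given line, both kinds of library come from the same table and batch.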

How the results depend on the processing

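The counts of differing genes kept within 1.5 times of those reported under every alternative but the test against a 2-fold change, which by construction asks for more and called 2466 genes higher and 2926 lower in C4-2B. At least 4-fold differences then numbered 1397 higher and 1959 lower. These are counts over all tested genes. Of the counts per list and direction, 1007 alternative values kept within 1.5 times and 57 moved, most under the 2-fold test. Under that test lower genes fell from 23 to 11 for G1/S, from 21 to 4 for G2/M and from 22 to 1 for nuclear-encoded subunits. Ribosomal protein genes then had 0 higher and 1 lower, against 19 and 19. Leaving out each control library gave 6325 to 6589 higher and 6576 to 6737 lower genes. Without TMM, higher genes made up 45.85% of calls, against 49.36%, and the median of all genes moved to -0.07. The replicate numbers do not pair the libraries (correlations of -0.30, 0.12 and -0.09 between same-numbered libraries), and with the replicate block 6398 genes were higher and 6608 lower. Over 281 named genes and 3930 alternative values, 3852 kept their direction and their side of the threshold, 75 lost the call (most under the 2-fold test), 3 gained it, and 0 changed sign. Apart from set anchors, these genes were named for wide, called and non-overlapping differences in the same control libraries. Their kept calls were thus largely fixed in advance and do not speak for genes in general. RN7SL1 (-1.33 ± 0.41, adjusted p = 0.0374) lost its call without C4-2B controls 2 or 3, without 22Rv1 controls 2 or 3 and with the block (adjusted p 0.0741 to 0.115). Low counts limit genes under 2 CPM.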
